A study of Mus musculus with 24 samples.

Results

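Dcstamp and the genes that osteoclasts use to fuse and to resorb bone were followed through 8 groups of sorted colon myeloid cells. The genes were chosen by symbol, after Dcstamp had been seen to differ most between tumour and lamina propria (LP) in MHCIIlow macrophages, and the listed symbols were Dcstamp, Ocstamp, Acp5, Ctsk, Nfatc1, Atp6v0d2, Oscar and Tnfrsf11a. Of the 8 listed genes, 7 had a row among the 17301 genes of the table used, and Oscar was not analysed here. Because the choice rested on Dcstamp and on the tumour and LP values of MHCIIlow macrophages, every Dcstamp value and every value of that contrast is given as a description without a test, and the other 6 genes were tested in 10 other comparisons. Among these 10, the comparison of tumour effects between the macrophage subsets contains that contrast and is not independent of the choice.

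RNA was sequenced from F4/80hi MHCIIhi macrophages, F4/80hi MHCIIlow macrophages, Ly6Chi MHCII- monocytes and Ly6Ghi F4/80- CD11b+ neutrophils, sorted from colon LP of C57BL/6J mice or from the colon tumours that arise in Apc Min/+ mice, a strain with 1 inactive copy of the tumour suppressor gene Apc. Each of the 8 groups held 3 libraries, each made from a pool of 13 to 15 female and male mice, so that differences between single mice cannot be seen. Per the study's methods, the Apc Min/+ mice and the corresponding control mice both drank dextran sodium sulphate (DSS), which injures the colon epithelium, for 1 week. The interval from then to analysis was 4 weeks, and the mice were by then 3 to 4 months old. The concentration differed between the genotypes and the labels call the LP healthy. By the methods LP, unlike tumours, was treated with EDTA to remove the epithelium. LP was also digested for longer and without DNase I, and its leukocytes were enriched on another Percoll gradient. Tissue, genotype, DSS dose and cell isolation thus cannot be told apart in any comparison of tumour with LP.

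Osteoclasts are giant cells that form when precursors of the monocyte and macrophage lineage fuse, and they dissolve bone by secreting acid and proteases. The cytokine RANKL binds its receptor RANK, encoded by Tnfrsf11a, and together with M-CSF it switches on the transcription factor NFATc1, which in turn activates genes for fusion and resorption. The membrane proteins DC-STAMP and OC-STAMP are required for cell fusion, and several of these genes are also used by macrophages outside bone. In the colon, macrophages are best known for taking up bacteria and dead cells.

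The libraries held 12.8 to 41.7 M reads on genes, with a median of 26.4 M. Markers of the sorted cells were present in the populations named. RPKM are reads divided by gene length and by a scaled library size, so levels are not per read sequenced. In tumour neutrophils that size was 7.67 to 12.5 M, against 15.9 to 26.7 M reads on genes. In tumour MHCIIlow macrophages it was 26.6 to 43.7 M, against 18.6 to 33.3 M reads. The summed level of 8 macrophage markers was 4250 to 7890 RPKM in the macrophage libraries and 601 to 1300 in the others, with 0 of 8 at or under 3 reads throughout a group. The summed level of 6 neutrophil markers was 11400 to 29000 RPKM in the neutrophils and 23.3 to 148 elsewhere. Their defining gene Ly6g was at or under 3 reads in every library of LP MHCIIhi, LP MHCIIlow and tumour MHCIIhi macrophages. The 6 monocyte markers did not set all monocytes apart from neutrophils. Monocytes sorted from tumours had a summed level of 2490 to 3370 RPKM, whereas those sorted from LP had 795 to 1160. Tumour neutrophils, with 819 to 1080, overlapped the LP monocytes, and LP neutrophils had 595 to 734. Macrophage libraries had 12.9 to 453. All values were bulk averages of pooled cells, in which fewer cells of a type and less RNA per cell cannot be told apart. The 3 libraries of a group carried different donor numbers, and p values measure the spread between these pools.

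Dcstamp (ENSMUSG00000022303, GRCm38, chromosome 15, 39745930 to 39760938, plus strand) encodes a multipass membrane protein needed for osteoclasts and macrophages to fuse. In LP its level was 5.33, 4.87 and 4.93 log2 RPKM in the MHCIIhi macrophages of donors III, IV and V, against -0.38, 0.71 and 1.01 in the MHCIIlow macrophages of donors II, III and IV. In tumours it was 6.35, 7.05 and 6.34 in the MHCIIhi macrophages of donors I, V and VII, and 6.61, 7.09 and 6.79 in the MHCIIlow macrophages of the same donors. The LP MHCIIlow macrophages thus stood below all other macrophage libraries, while both tumour macrophage groups overlapped and lay above the LP MHCIIhi macrophages. As mean RPKM, the 4 groups had 33.3 ± 5.99, 1.47 ± 0.641, 98.6 ± 29.7 and 115 ± 19.6 (SD, n = 3 each).

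In monocytes Dcstamp was at -0.28, 0.38 and 0.89 log2 RPKM in LP and at 2.55, 2.53 and 2.22 in tumours. In neutrophils it was at 0.86, 0.81 and 1.75 in LP and at 2.84, 3.56 and 2.09 in tumours. The tumour libraries lay above the LP libraries of the same population in all 4 populations, without overlap in RPKM. In neutrophils this rested on 65 to 192 reads per library in tumours and 47 to 144 in LP. It also rested there on the scaled library sizes given above, and need not hold per read sequenced. The log2 difference of tumour minus LP was 6.38 in MHCIIlow macrophages, 1.54 in MHCIIhi macrophages, 2.10 in monocytes and 1.69 in neutrophils. The value in MHCIIlow macrophages corresponds to an 83.4-fold higher level and rested on 63 to 71 reads per library in LP and 5164 to 11855 in tumours. Without the LP MHCIIlow library of donor II, the lowest of the 24 libraries, it was 5.97.

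The groups ranked, from highest, as tumour MHCIIlow macrophages, tumour MHCIIhi macrophages, LP MHCIIhi macrophages, tumour neutrophils, tumour monocytes, LP neutrophils, LP MHCIIlow macrophages and LP monocytes. Neighbours overlapped between the tumour macrophage groups, between tumour neutrophils and tumour monocytes, and among the last 3 groups. The other neighbours were apart. Between the macrophage subsets the log2 difference of MHCIIlow minus MHCIIhi was -4.60 in LP and 0.25 in tumours.

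**Figure D1:**
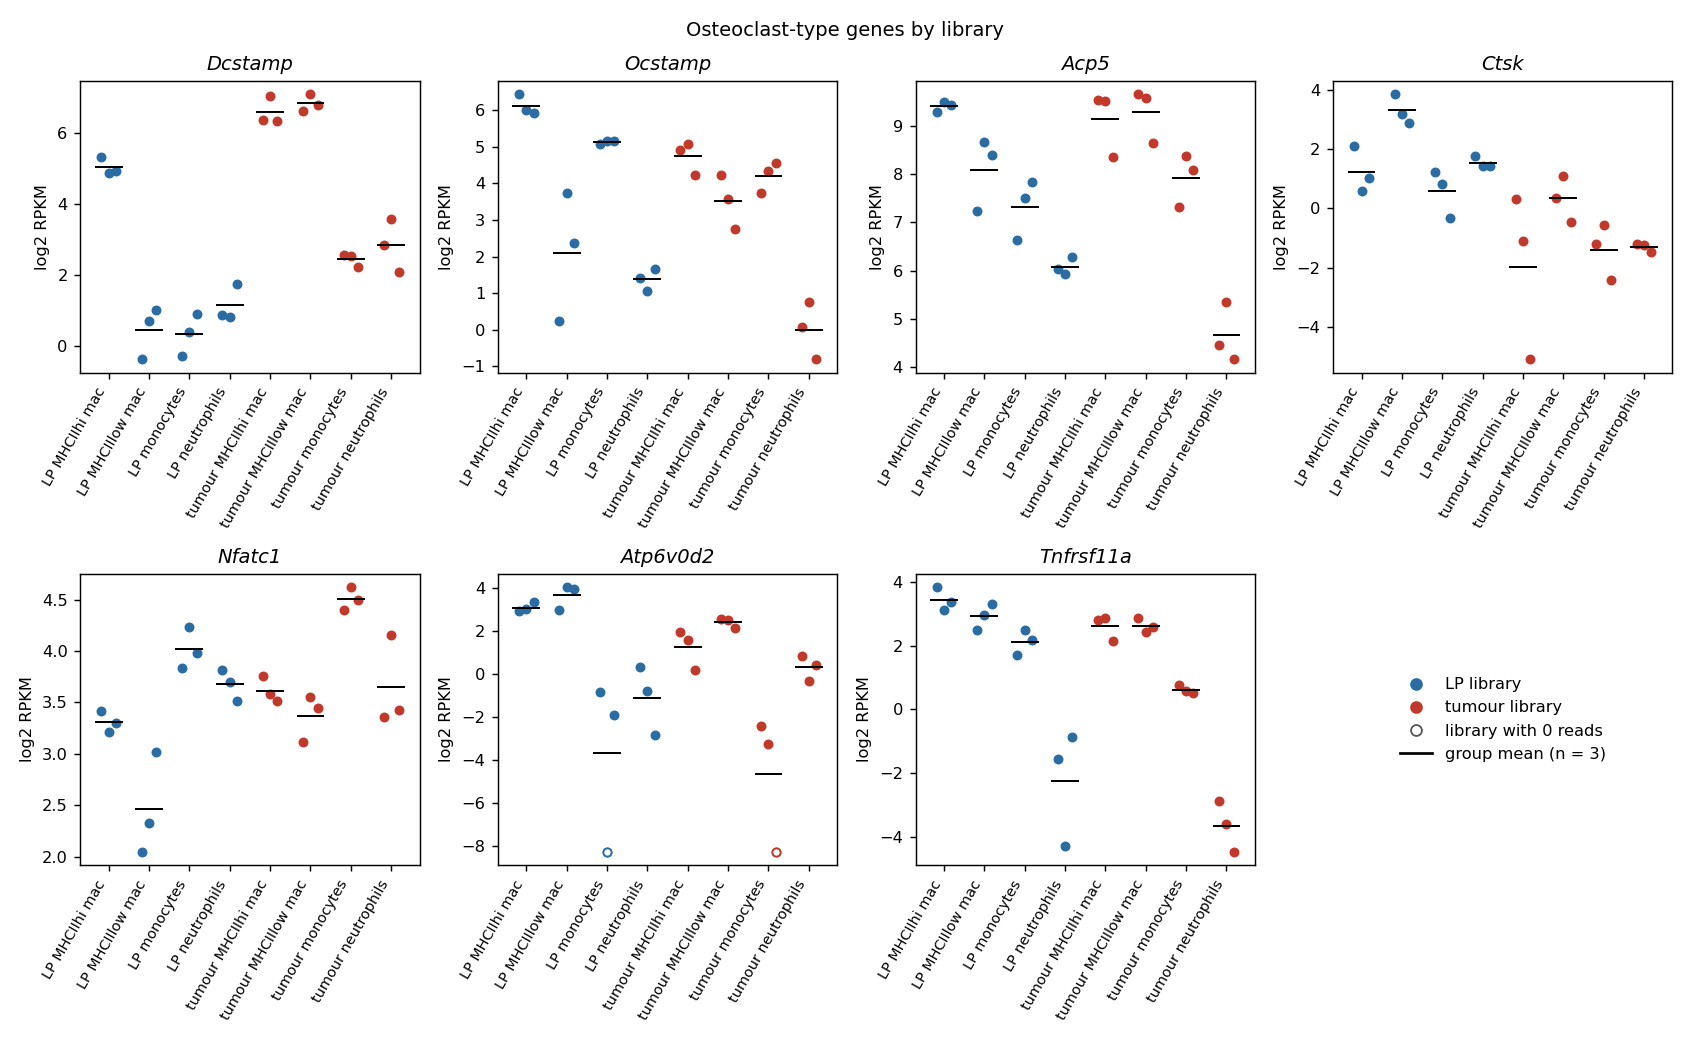
Level of each of the 7 genes in log2 RPKM (vertical axis, scaled to each gene) in the 24 libraries, grouped by tissue and population on the horizontal axis; points are libraries, open points have 0 reads and bars are means of 3 libraries. Dcstamp was near 0 in LP MHCIIlow macrophages and above 6 in all 6 tumour macrophage libraries, whereas Ocstamp was highest in LP MHCIIhi macrophages and Ctsk in LP MHCIIlow macrophages.

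Ocstamp (ENSMUSG00000027670, chromosome 2, 165393760 to 165400405, minus strand) encodes the related protein OC-STAMP, which acts beside DC-STAMP in fusion. Of the stretches of read length in its transcripts, 2.69% also occur in other genes. In LP its level was 6.44, 6.02 and 5.94 log2 RPKM in MHCIIhi macrophages and 0.23, 3.73 and 2.37 in MHCIIlow macrophages. In tumours it was 4.92, 5.07 and 4.24 in MHCIIhi macrophages and 4.23, 3.58 and 2.76 in MHCIIlow macrophages. Thus the MHCIIhi macrophages of LP held the most Ocstamp, and the MHCIIlow macrophages of LP varied widely.

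LP monocytes were the second highest group, at 5.09, 5.15 and 5.15, above tumour monocytes at 3.73, 4.34 and 4.57. Neutrophils were lowest, at 1.42, 1.05 and 1.66 in LP and 0.08, 0.75 and -0.80 in tumours. From the highest mean down, LP MHCIIhi macrophages were apart from LP monocytes, and these from tumour MHCIIhi macrophages. Tumour MHCIIhi macrophages, tumour monocytes, tumour MHCIIlow macrophages, LP MHCIIlow macrophages and LP neutrophils followed, each overlapping the next, and tumour neutrophils were apart below them.

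The levels of the 2 fusion genes stood in different proportions in LP and in tumours. Per length, Dcstamp was below Ocstamp by a mean of 1.09 ± 0.07 on the log2 RPKM scale (SD, n = 3) in LP MHCIIhi macrophages and above it by 1.84 ± 0.36 in tumour MHCIIhi macrophages. In MHCIIlow macrophages the mean difference of Dcstamp minus Ocstamp was -1.67 ± 1.23 in LP and 3.31 ± 0.85 in tumours. Monocytes held more Ocstamp in both tissues, with differences of -4.80 ± 0.56 and -1.78 ± 0.59, and neutrophils went from -0.24 ± 0.33 in LP to 2.82 ± 0.07 in tumours. The ranges of the difference did not overlap between tumour and LP in any of the 4 populations. These differences hold Dcstamp and are given without a test.

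**Figure D2:**
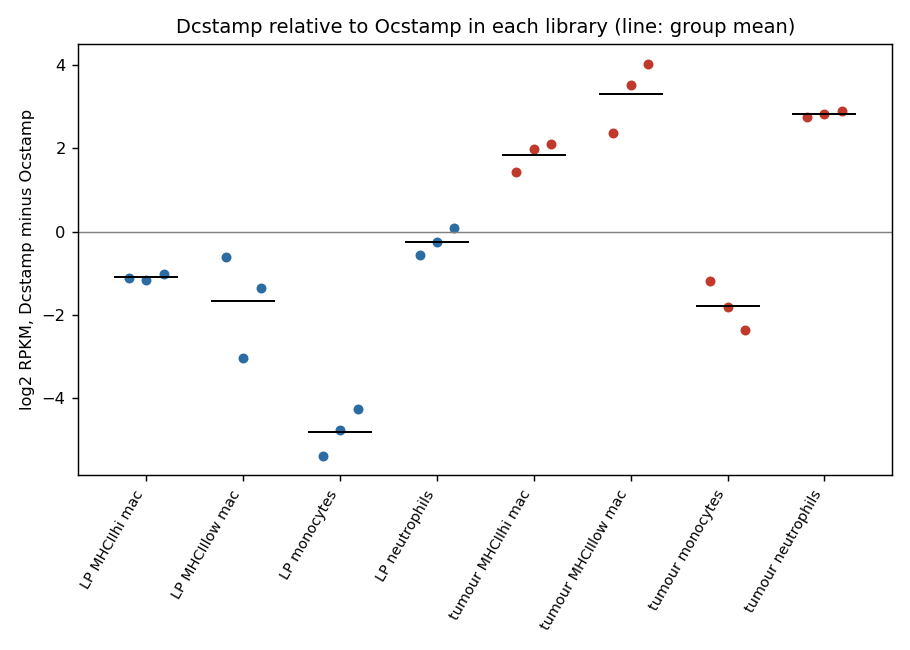
Dcstamp minus Ocstamp on the log2 RPKM scale (vertical axis) in each library, by group (horizontal axis); lines are means of 3 libraries. Tumour macrophages and neutrophils lay above 0, from 1.43 to 4.03, while LP macrophages and all monocytes lay below 0.

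Acp5 (ENSMUSG00000001348, chromosome 9, 22126727 to 22135711, minus strand) encodes tartrate-resistant acid phosphatase, the enzyme classically stained to find osteoclasts, and is also made by tissue macrophages. Of its exon bases 6.75% overlap an antisense gene, 6530413G14Rik, and 4.60% of its stretches of read length occur in another gene. It had the highest levels of the 7 genes per length, with 330 to 808 RPKM in LP MHCIIhi and in both tumour macrophage groups and 17.9 to 404 in the other 5 groups. On the log2 RPKM scale LP MHCIIhi macrophages were at 9.30, 9.51 and 9.43 and LP MHCIIlow macrophages at 7.23, 8.66 and 8.39. Tumour MHCIIhi macrophages were at 9.53, 9.52 and 8.37 and tumour MHCIIlow macrophages at 9.66, 9.58 and 8.65. Both tumour libraries of donor VII lay about as low as the higher LP MHCIIlow libraries, so that these groups overlapped.

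Monocytes were at 6.64, 7.50 and 7.83 log2 RPKM in LP and 7.32, 8.37 and 8.09 in tumours. Neutrophils were at 6.04, 5.94 and 6.27 in LP and 4.46, 5.35 and 4.16 in tumours. The order was LP MHCIIhi macrophages, tumour MHCIIlow macrophages, tumour MHCIIhi macrophages, LP MHCIIlow macrophages, tumour monocytes, LP monocytes, LP neutrophils and tumour neutrophils. Neighbours overlapped down to LP monocytes, and both neutrophil groups were apart from the group above.

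Ctsk (ENSMUSG00000028111, chromosome 3, 95499256 to 95509362, plus strand) encodes cathepsin K, the protease with which osteoclasts cleave bone collagen, and fibroblasts also express it. LP MHCIIlow macrophages were its highest group, at 3.85, 3.18 and 2.87 log2 RPKM. LP neutrophils were at 1.76, 1.44 and 1.42, LP MHCIIhi macrophages at 2.10, 0.59 and 1.02 and LP monocytes at 1.23, 0.83 and -0.32. All 12 tumour libraries were low, from -5.10 in tumour MHCIIhi macrophages of donor VII, which had 1 read, to 1.11 in tumour MHCIIlow macrophages of donor V. Mean RPKM was 10.3 ± 3.68 (SD, n = 3) in LP MHCIIlow macrophages and at most 2.93 ± 0.404 in any other group. LP MHCIIlow macrophages were apart from the next group and tumour MHCIIlow macrophages from tumour neutrophils below them, and all other neighbours in the order overlapped.

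Stromal markers differed between LP and tumours together with Ctsk. Summed over 7 fibroblast and stromal markers, the level was 19.8 to 62.0 RPKM in LP MHCIIlow macrophages, 7.59 to 22.1 in LP MHCIIhi macrophages, 14.3 to 29.2 in LP monocytes and 21.5 to 40.5 in LP neutrophils. In tumours it was 0.384 to 1.77 in MHCIIhi macrophages, 0.557 to 1.15 in MHCIIlow macrophages, 0.860 to 1.02 in monocytes and 1.27 to 1.57 in neutrophils. No library of LP was as low as any of the tumours. Within LP MHCIIlow macrophages the library of donor II had the most Ctsk, 14.4 RPKM, and the lowest stromal sum, 19.8, against 9.06 and 7.33 RPKM of Ctsk at sums of 62.0 and 59.2. At or under 3 reads in every library of a group were Lum in all 4 tumour groups, Pdgfra in all of them except MHCIIhi macrophages, and Col1a2 in tumour monocytes and neutrophils, whereas 0 of 7 markers were so low in any LP group. The part of stromal RNA in the Ctsk values was not tested.

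**Figure D3:**
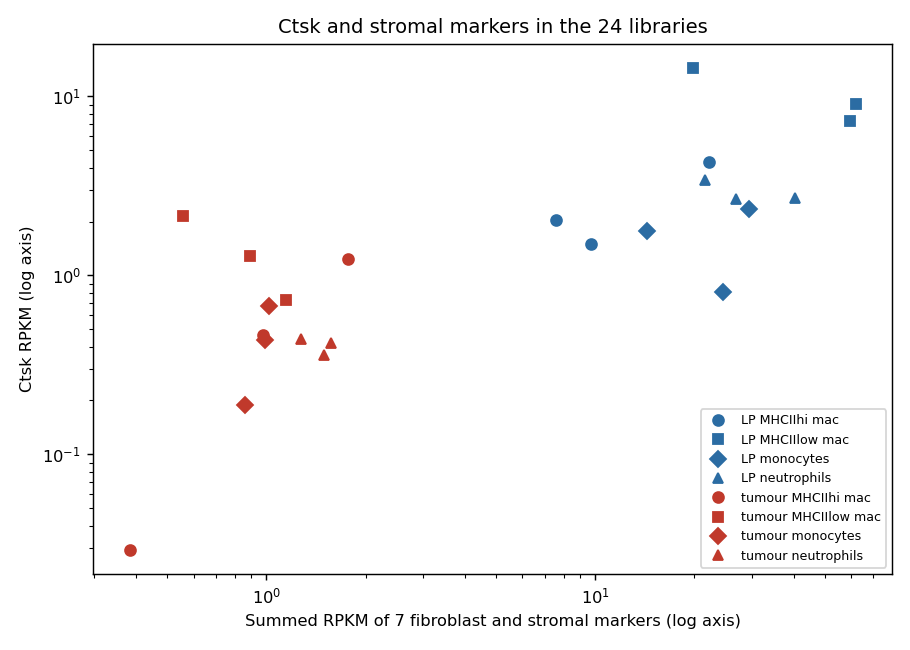
Ctsk in RPKM (vertical log axis) against the summed RPKM of 7 fibroblast and stromal markers (horizontal log axis) in the 24 libraries, with blue for LP and red for tumours and a symbol for each population. The LP libraries had stromal sums of 7.59 to 62.0 RPKM and the tumour libraries 0.384 to 1.77, and Ctsk was highest in the 3 LP MHCIIlow libraries.

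The RefSeq promoter windows of Ctsk and Acp5 are printed because the order of the groups differed between these 2 resorption genes, and NFATc1, AP-1, PU.1 and MITF are known regulators of resorption genes in osteoclasts. A window spans 250 bases before to 50 after an annotated start (GRCm38.p6), and it was matched by symbol for 3 of the 6 genes searched, Acp5, Ctsk and Tnfrsf11a. Dcstamp, Ocstamp and Atp6v0d2 had no match. Capitals mark, on either strand, TGGAAA (NFAT core), TGANTCA (AP-1), GAGGAAG (PU.1-type) and TCANGTG (MITF-type). No capitals overlap another motif. The Ctsk window is chr3:95498960-95499259 on the plus strand and the Acp5 window, the most downstream of 3 starts, is chr9:22130549-22130848 on the minus strand.
Ctsk: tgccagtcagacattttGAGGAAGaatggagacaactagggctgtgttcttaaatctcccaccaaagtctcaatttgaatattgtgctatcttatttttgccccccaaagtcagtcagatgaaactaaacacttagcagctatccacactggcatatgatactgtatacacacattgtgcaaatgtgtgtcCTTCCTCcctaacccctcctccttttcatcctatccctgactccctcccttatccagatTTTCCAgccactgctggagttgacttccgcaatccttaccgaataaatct
Acp5: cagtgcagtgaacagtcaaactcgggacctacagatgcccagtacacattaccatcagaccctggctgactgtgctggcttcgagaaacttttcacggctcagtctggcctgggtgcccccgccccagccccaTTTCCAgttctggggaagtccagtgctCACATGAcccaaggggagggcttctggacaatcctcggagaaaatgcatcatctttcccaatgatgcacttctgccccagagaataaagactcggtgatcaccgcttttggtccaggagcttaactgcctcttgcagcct

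The Ctsk window held 1 NFAT core, at the start itself, and 2 PU.1-type matches, beginning 233 and 59 bases before the start. The downstream Acp5 window held 1 NFAT core and 1 MITF-type match, beginning 117 and 90 bases before the start, and 0 matches lay in the windows of the other 2 Acp5 starts or of Tnfrsf11a. Of all 32851 windows, 21.4% held an NFAT core, 7.81% an AP-1, 13.6% a PU.1-type and 14.3% a MITF-type match. The matches are letters in these windows only.

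Atp6v0d2 (ENSMUSG00000028238, chromosome 4, 19876841 to 19922605, minus strand) encodes the d2 subunit of the vacuolar proton pump, which osteoclasts use to acidify the resorption space and which also takes part in their fusion. Its level was highest in macrophages. LP MHCIIlow macrophages were at 7.87 to 16.7 RPKM, LP MHCIIhi macrophages at 7.68 to 10.1, tumour MHCIIlow macrophages at 4.44 to 6.0 and tumour MHCIIhi macrophages at 1.14 to 3.92. Tumour neutrophils were at 0.817 to 1.83 and LP neutrophils at 0.140 to 1.25. In monocytes 1 library of LP and 1 of tumours had 0 reads, and the others had at most 38 reads and 0.559 RPKM. In the order just given LP MHCIIhi macrophages were apart from tumour MHCIIlow macrophages and these from tumour MHCIIhi macrophages, and the remaining neighbours overlapped.

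Tnfrsf11a (ENSMUSG00000026321, chromosome 1, 105780718 to 105847981, plus strand) encodes RANK, the receptor for RANKL. Its levels were 3.84, 3.11 and 3.35 log2 RPKM in LP MHCIIhi macrophages and 2.48, 2.97 and 3.31 in LP MHCIIlow macrophages. They were 2.80, 2.85 and 2.16 in tumour MHCIIhi macrophages and 2.85, 2.43 and 2.59 in tumour MHCIIlow macrophages. In the order LP MHCIIhi, LP MHCIIlow, tumour MHCIIlow and tumour MHCIIhi each macrophage group overlapped the next, while LP MHCIIhi macrophages lay above both tumour groups. LP monocytes, at 1.71, 2.48 and 2.19, overlapped tumour MHCIIhi macrophages and lay above tumour monocytes at 0.76, 0.56 and 0.52. Neutrophils were near the limit of detection with 2 to 70 reads per library.

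RANKL itself, encoded by Tnfsf11, was at 0 to 104 reads per library. Its decoy receptor Tnfrsf11b reached 803 reads in LP monocytes, 666 in tumour monocytes and at most 217 elsewhere. Csf1r, the M-CSF receptor, was high in every population, with group means of 7.31 to 9.90 log2 RPKM.

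Nfatc1 (ENSMUSG00000033016, chromosome 18, 80606205 to 80713071, minus strand) encodes the master transcription factor of osteoclast formation. Unlike the other genes, it was highest in monocytes, at 4.40, 4.62 and 4.49 log2 RPKM in tumours and 3.84, 4.23 and 3.98 in LP. It was lowest in LP MHCIIlow macrophages at 2.05, 2.33 and 3.02. The other 5 groups lay between 3.11 and 4.16, in the order LP neutrophils, tumour neutrophils, tumour MHCIIhi macrophages, tumour MHCIIlow macrophages and LP MHCIIhi macrophages, each overlapping the next. Both monocyte groups were apart from the group below, and LP MHCIIlow macrophages from all others. Mean RPKM spanned only 5.75 ± 2.08 to 22.7 ± 1.80 (SD, n = 3).

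The first comparison asked what differed between tumour and LP in cells of the same sort. In MHCIIhi macrophages Ctsk was lower in tumours by 3.20 ± 0.90 on the log2 scale (SE, 9.22-fold, limma adjusted p = 0.0153), and 1 of 6 tested genes was called lower and 0 higher. Of all 12878 genes tested, 11.5% were called lower and 8.01% higher. Ocstamp, Atp6v0d2 and Tnfrsf11a were also lower without overlap, with log2 differences of -1.39 ± 0.58, -1.84 ± 1.46 and -0.83 ± 0.59, but their adjusted p values were 0.103, 0.444 and 0.382 by limma. Acp5 differed by -0.27 ± 0.41 and Nfatc1, higher without overlap, by 0.30 ± 0.22, with adjusted p of 0.727 and 0.392. The Ctsk call was lost without LP MHCIIhi macrophages of donor III (-2.77, adjusted p = 0.0752) and without tumour MHCIIhi macrophages of donor VII (-1.64, adjusted p = 0.0936), and in a limma fit of only the 6 libraries compared its adjusted p was 0.175 and that of Ocstamp 0.0207. Limma's voom on reads recovered from the values called 4 of the 6 genes lower, Ctsk, Ocstamp, Atp6v0d2 and Tnfrsf11a. The standard error of Atp6v0d2 takes in its spread in monocytes, with an SD of 4.01 in LP and 3.17 in tumours. In MHCIIhi macrophages that SD was 0.212 in LP and 0.941 in tumours. Under log2(RPKM + 1) Atp6v0d2 was called lower (-1.46, limma adjusted p = 0.00127). Besides the stromal sums, summed monocyte markers were 58.0 to 65.5 RPKM in LP and 12.9 to 17.7 in tumour MHCIIhi macrophages, and dendritic cell markers 46.9 to 68.0 and 5.87 to 15.6, with none at or under 3 reads throughout either group, and their part was not tested.

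In MHCIIlow macrophages, the contrast used to choose the genes, 2 of 7 genes were higher in tumours without overlap, Dcstamp and Nfatc1, and 2 were lower, Ctsk and Atp6v0d2. Among all 12878 genes 22.7% were higher and 19.3% lower without overlap. The log2 differences were 0.91 for Nfatc1, 1.41 for Ocstamp, 1.20 for Acp5, -2.97 for Ctsk, -1.25 for Atp6v0d2 and -0.30 for Tnfrsf11a, beside 6.38 for Dcstamp. Ocstamp differed by 0.47 without the LP library of donor II and by 2.22 without that of donor III, and Acp5 by 0.77 to 1.52 with 1 library left out. The median over the 6 genes other than Dcstamp was 0.31, with 3 of 6 above 0, and over all genes it was 0.06. These values are descriptive.

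In monocytes 0 of 6 genes were called by limma, where 4.86% of all genes were called higher in tumours and 4.43% lower. At an unadjusted p under 0.05 there were 3, and voom called 1. Tnfrsf11a was lower by 1.51 ± 0.59 on the log2 scale (limma adjusted p = 0.122), Ctsk by 1.98 ± 0.90 (0.197) and Ocstamp by 0.92 ± 0.58 (0.384), all without overlap. Nfatc1 was higher by 0.49 ± 0.22 (0.196), also without overlap. With the donor as a block, Ctsk was lower by 3.02 (limma adjusted p = 0.0213), but donors pair libraries only within a tissue, and that fit averages over donors without a monocyte library, II in LP and VII in tumours, so that it is no paired test of tumour against LP. Summed B and plasma cell markers of these monocytes were 156 to 571 RPKM in LP, against 0.182 to 4.67 in tumours, and their part was not tested. Tnfrsf11a was the gene called by voom (-1.55, adjusted p = 0.00782).

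In neutrophils Acp5 was lower in tumours by 1.43 ± 0.41 on the log2 scale (2.69-fold, limma adjusted p = 0.0121) and Ctsk by 2.85 ± 0.90 (7.21-fold, adjusted p = 0.0201), so that 2 of 6 genes were called lower and 0 higher. Ctsk had only 4 to 8 reads per library in tumour neutrophils, so the size of its difference is uncertain. It was -1.48 under log2(RPKM + 1) and -3.90 with the donor as a block, and Ctsk was called in both. Over all genes 19.0% were called lower and 13.1% higher, with a median difference of -0.12. With each library centred on its median, 2375 genes were called higher and 1788 lower, in place of 1690 and 2452. Ocstamp and Tnfrsf11a differed by -1.37 ± 0.58 and -1.40 ± 0.59, with adjusted p of 0.0764 and 0.0768 by limma. Nfatc1 differed by -0.03 ± 0.22, and by 0.21 with each library centred on its median. The Acp5 call was lost without tumour neutrophils of donor V (-1.18, adjusted p = 0.0595) and the Ctsk call without LP neutrophils of donor III (-2.74, adjusted p = 0.0554), and voom called neither (0.123 and 0.0535). Tnfrsf11a was called without LP neutrophils of donor IV (-2.43, adjusted p = 0.000252) or tumour neutrophils of donor I (-1.79, 0.0432), but without LP neutrophils of donor V it differed by -0.72 (0.383). Ocstamp was called without tumour neutrophils of donor II (-1.74, 0.0459). Stromal sums were lower in tumours here too, as given above, and so were those of 5 B and plasma cell markers, with 356 to 1290 RPKM in LP and 0.650 to 19.8 in tumours. Macrophage markers were also lower, at 726 to 792 RPKM in LP and 601 to 667 in tumours, and dendritic cell markers at 77.4 to 148 and 2.72 to 18.5. Epithelial markers went the other way, with 12.5 to 61.0 RPKM in LP and 149 to 301 in tumours, as did the monocyte markers given above. The part of these other cells was not tested.

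**Figure D4:**
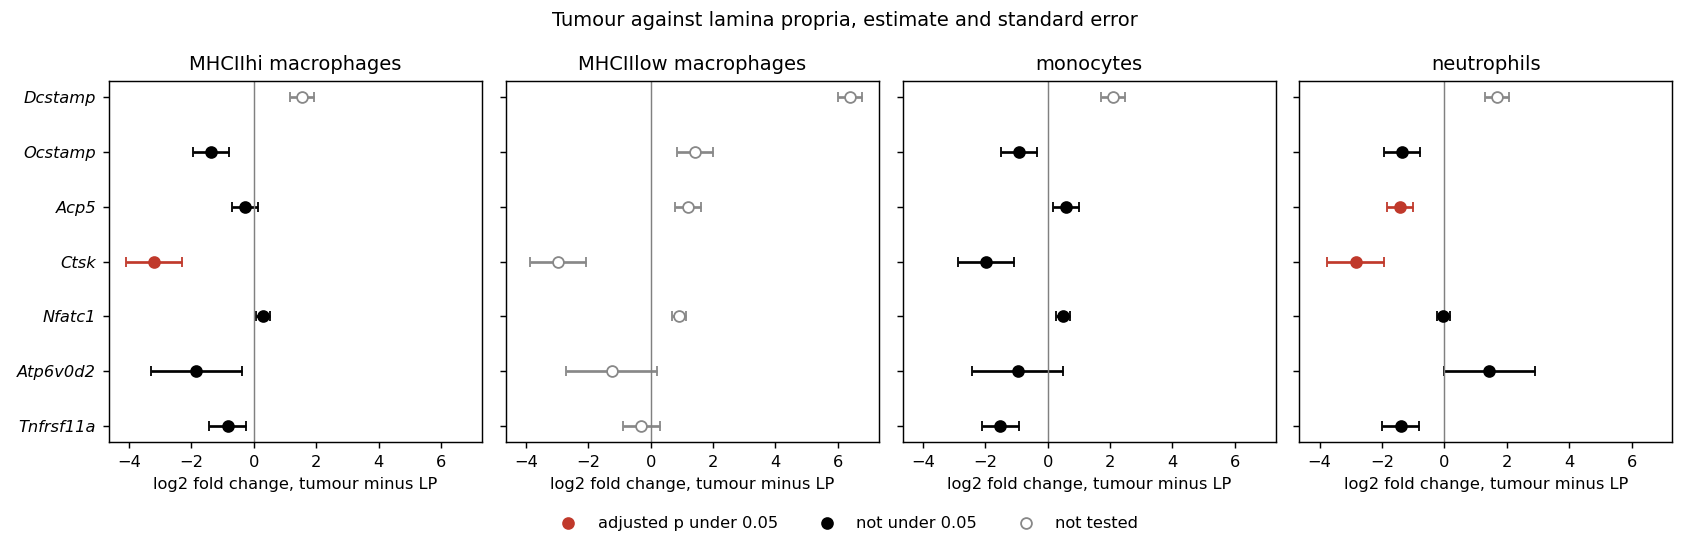
Log2 fold change of tumour minus LP (horizontal axis) with its standard error for the 7 genes (vertical axis) in each of the 4 populations; red points had a limma adjusted p under 0.05, black points did not and open points were not tested. Dcstamp was above 0 in all 4 panels and Ctsk below 0 in all 4, and the red points are Ctsk in MHCIIhi macrophages and Acp5 and Ctsk in neutrophils.

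The second comparison set the macrophage subsets side by side. In LP Ocstamp was lower in MHCIIlow than in MHCIIhi macrophages by 4.02 ± 0.58 on the log2 scale (16.2-fold, limma adjusted p = 0.000173), and Nfatc1 by 0.85 ± 0.22 (1.80-fold, adjusted p = 0.0216). These were 2 of 6 genes called lower, with 0 higher, where 5.57% of all genes were lower and 2.13% higher. Acp5 was lower without overlap by 1.32 ± 0.41 (adjusted p = 0.057) and Ctsk higher without overlap by 2.06 ± 0.90 (adjusted p = 0.193). Ocstamp was lower by 3.08 without the MHCIIlow library of donor II and by 4.83 without that of donor III, and was called in both fits. The adjusted p of Ocstamp was 0.0644 with only the 6 libraries compared. The Nfatc1 call was lost with the donor as a block (-0.67, limma adjusted p = 0.0954) and in 5 of 6 fits without 1 library, with adjusted p of 0.0513 to 0.126, all but that without the MHCIIlow library of donor IV. Acp5 was called without the MHCIIlow library of donor III (-1.60, adjusted p = 0.0341). Summed monocyte markers were 125 to 453 RPKM in LP MHCIIlow macrophages and 58.0 to 65.5 in LP MHCIIhi macrophages, with 0 of 6 at or under 3 reads in either, and dendritic cell markers were 4.17 to 14.6 against 46.9 to 68.0, and their part was not tested.

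In tumours the subsets differed in 0 of 6 genes by limma, with 0.567% of all genes called higher in MHCIIlow macrophages and 0.567% lower. At an unadjusted p under 0.05 there were 2, and voom called 0. Ocstamp differed by -1.22 ± 0.58 without overlap (limma adjusted p = 0.435) and Ctsk by 2.30 ± 0.90 (0.279). Ctsk rested on the MHCIIhi library of donor VII with 1 read, and differed by 0.74 without it (adjusted p = 0.933) and by 3.44 without that of donor I (0.0733). The 95% intervals were -0.71 to 1.02 for Acp5, -0.71 to 0.22 for Nfatc1 and -1.21 to 1.26 for Tnfrsf11a. These intervals come from the fit without pairing, although both subsets held libraries of donors I, V and VII. Within each of these donors Acp5, Ctsk and Atp6v0d2 were higher in the MHCIIlow library and Ocstamp and Nfatc1 lower, while Tnfrsf11a went both ways. Atp6v0d2 differed by 1.16 ± 1.46 without overlap (limma adjusted p = 0.921).

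Whether the difference between tumour and LP itself differed between MHCIIlow and MHCIIhi macrophages was tested as an interaction. It contains the contrast used to choose the genes, so its p values are not independent of that choice and no conclusion is drawn from them. Limma called 0 of 6 genes, against 1.13% of all genes higher and 0.326% lower, with 2 at an unadjusted p under 0.05 and 1 by voom, Ocstamp. The estimate for Ocstamp was 2.79 ± 0.82 on the log2 scale (limma adjusted p = 0.103), and without the LP MHCIIlow library of donor III it was 3.60 and was called (adjusted p = 0.00862). Without the LP MHCIIlow library of donor II it was 1.85 (adjusted p = 0.181), and with the donor as a block 1.84 (0.0975). Acp5 had 1.47 ± 0.58 (adjusted p = 0.267). For Dcstamp the same quantity was 4.84, without a test.

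The third comparison set macrophages, as the mean of both subsets, against monocytes of the same tissue. Atp6v0d2 was higher in macrophages in both tissues, with adjusted p of 0.000262 in LP and 0.000386 in tumours by limma. The fitted log2 differences of 7.06 and 6.47 depend on how 0 reads are treated, and were 5.18 and 4.34 after adding 0.1 RPKM and 3.20 and 2.10 after adding 1. Without the monocyte library with 0 reads, donor IV in LP and donor V in tumours, they were 4.76 and 4.66, and both stayed called. Without LP monocytes of donor III the LP value was 8.47, without those of donor V it was 7.94, and without tumour monocytes of donor I or donor II the tumour value was 7.58 or 7.18.

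Acp5 was higher in macrophages by 1.43 ± 0.36 in LP and 1.29 ± 0.36 in tumours (adjusted p = 0.00476 and 0.00716 by limma), with overlap in both tissues. The calls were lost without LP monocytes of donor III (1.09, adjusted p = 0.0507) and tumour monocytes of donor I (0.99, 0.0704). Nfatc1 was lower in macrophages by 1.13 ± 0.19 and 1.01 ± 0.19 (0.000145 and 0.000275), without overlap. Tnfrsf11a was higher by 2.00 ± 0.51 in tumours (0.0041) and by 1.05 ± 0.51 in LP (0.135), without overlap in either tissue. In LP 2 of 6 genes were called higher and 1 lower, where 12.5% and 17.0% of all genes were. In tumours 3 were called higher and 1 lower, where 16.8% and 21.4% were. Ocstamp differed by -1.01 ± 0.50 in LP (0.143) and -0.08 ± 0.50 in tumours (0.926). Without the LP MHCIIlow library of donor III Ocstamp was called in LP (-1.41, adjusted p = 0.0153), whereas without that of donor II it differed by -0.54 (0.302). Ctsk differed in LP by 1.69 ± 0.78, with overlap (limma adjusted p = 0.114). Both Ctsk and Tnfrsf11a were called in LP after adding 0.1 or 1 RPKM, by voom and with only the libraries compared. In tumours Ctsk differed by 0.58 ± 0.78 (adjusted p = 0.597), with 1.36 (0.0434) without MHCIIhi macrophages of donor VII and 0.01 without those of donor I. Both macrophage subsets enter these means, and for Ocstamp in LP they lay on either side of the monocytes.

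The last comparison set monocytes against neutrophils. Tnfrsf11a was higher in monocytes by 4.37 ± 0.59 in LP and 4.26 ± 0.59 in tumours (adjusted p = 3.79e-06 and 4.27e-06 by limma), Ocstamp by 3.75 ± 0.58 and 4.21 ± 0.58 (1.77e-05 and 3.7e-06), and Acp5 by 1.24 ± 0.41 and 3.27 ± 0.41 (0.0155 and 1.26e-06). In tumours Nfatc1 was higher by 0.86 ± 0.22 (0.00247) and Atp6v0d2 lower by 4.97 ± 1.46 (0.00655). Neutrophils had 4 to 70 Tnfrsf11a reads per library in LP and 2 to 10 in tumours, so the size of these differences depends on how few reads are treated. After adding 1 RPKM Tnfrsf11a differed by 2.05 in LP and 1.22 in tumours, and Atp6v0d2 in tumours by -1.065, all still called. With only the libraries compared, the limma adjusted p of Atp6v0d2 in tumours was 0.0571. In LP 3 of 6 genes were called higher and 0 lower, and in tumours 4 higher and 1 lower. Of all genes 30.4% were higher and 24.1% lower in LP, and 34.9% and 23.3% in tumours, with medians of 0.24 and 0.36. With libraries centred on their median the tumour calls were 3421 higher and 3868 lower, in place of 4489 and 2997. With libraries centred on their median, Acp5 in LP (0.95, adjusted p = 0.0565) and Nfatc1 in tumours (0.41, adjusted p = 0.134) were no longer called. Acp5 in LP was also lost without monocytes of donor V (0.99, adjusted p = 0.0834), and Atp6v0d2 in tumours without monocytes of donor V, which had 0 reads (-3.15, adjusted p = 0.0623). In LP Atp6v0d2 differed by -2.57 ± 1.46 (adjusted p = 0.144), by -3.98 without monocytes of donor III (adjusted p = 0.0352) and by -0.27 without those of donor IV, which had 0 reads (adjusted p = 0.862). There Tnfrsf11a was higher by 3.34 without neutrophils of donor IV and by 5.05 without those of donor V.

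The 7 genes did not vary as a block over the 24 libraries. As a description over libraries that fall into 8 groups, Pearson's r on log2 RPKM was 0.89 between Acp5 and Tnfrsf11a, 0.79 between Ocstamp and Acp5 and 0.76 between Ocstamp and Tnfrsf11a. Dcstamp had 0.58 with Acp5, 0.36 with Ocstamp, 0.01 with Nfatc1 and -0.41 with Ctsk. Nfatc1 and Atp6v0d2 had -0.75. The name osteoclast-type genes stands for known roles, not for a shared order of levels in these cells.

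Among 5274 genes with a highest group mean of at least 10 RPKM, the 10 most like Dcstamp over the 24 libraries were Tmem119, Man2b1, Clec4n, Mmp12, Gpr65, Man2b2, Atp8a1, Ipo13, Fgd2 and Pctp, with Pearson's r from 0.896 for Tmem119 down to 0.835 for Pctp. None of the other 6 genes was among them. Tmem119, best known as a marker of microglia, had group means of 3.70 and 1.80 log2 RPKM in LP MHCIIhi and MHCIIlow macrophages and 6.84 and 6.84 in the same tumour populations. Mmp12, macrophage elastase, had 5.61 and 3.21 in LP and 7.07 and 8.47 in tumours. Clec4n, which encodes the lectin dectin-2, varied less, from 8.16 in LP monocytes to 9.72 in tumour MHCIIlow macrophages.

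Other genes of osteoclast formation were read from 5 lists. Their counts in tumour against LP stand beside shares over all genes of 8.01% higher and 11.5% lower in MHCIIhi macrophages, 4.86% and 4.43% in monocytes and 13.1% and 19.0% in neutrophils, and nothing particular to a list is drawn from them. Of the list of RANK and M-CSF signalling and transcription, 21 of 22 genes were tested, and in tumour against LP 5 were called higher and 7 lower in MHCIIhi macrophages, 4 and 0 in monocytes and 8 and 2 in neutrophils. Fosl1, an AP-1 subunit, was lower in tumour MHCIIhi macrophages by 3.40 ± 0.55 on the log2 scale (limma adjusted p = 0.000155), whereas Csf1, which encodes M-CSF, was higher by 2.18 ± 0.41 (0.000747). Nfkb1, an NF-kB subunit, was lower by 1.33 ± 0.18 (2.52e-05). In neutrophils Fosl1 was higher by 2.84 ± 0.55 (0.000562). The descriptive differences in MHCIIlow macrophages were -4.46 for Fosl1, 2.87 for Csf1 and -1.61 for Nfkb1. In monocytes Mitf, a partner of PU.1 at osteoclast genes, was higher in tumours by 1.31 ± 0.30 (0.00792).

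Of the list of ITAM and calcium co-stimulation, which supplies the calcium signal for NFATc1, 15 of 17 genes were tested. In tumours 3 were called higher and 2 lower in MHCIIhi macrophages, 2 and 1 in monocytes and 5 and 1 in neutrophils. The phospholipase gene Plcg2 was higher in all 3, by 0.74 ± 0.20, 0.83 ± 0.20 and 1.94 ± 0.20 on the log2 scale (limma adjusted p = 0.0138, 0.0127 and 8.83e-07). Tyrobp, the adaptor DAP12, was higher by 1.08 ± 0.31 (0.016) and Vav3 lower by 1.95 ± 0.20 (9.21e-07) in MHCIIhi macrophages. Trem2, a receptor that signals through DAP12, was higher in macrophages than in monocytes by 2.80 ± 0.43 in LP and 2.05 ± 0.43 in tumours (5.47e-05 and 0.000832).

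Of 9 repressors of osteoclast genes, all tested, 1 was called higher and 0 lower in tumour MHCIIhi macrophages, 1 and 0 in monocytes and 3 and 1 in neutrophils. Id2 was higher by 0.80 ± 0.17 on the log2 scale in MHCIIhi macrophages (limma adjusted p = 0.00242) and lower by 0.91 ± 0.17 in neutrophils (0.000519). Rbpj was higher in monocytes by 0.89 ± 0.13 (0.000215) and in neutrophils by 1.12 ± 0.13 (3.4e-06). In LP, Id3 was higher in MHCIIlow than in MHCIIhi macrophages by 1.95 ± 0.46 (0.0117).

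Of 20 other genes of macrophage fusion 18 were tested, and 1 was called higher and 6 lower in tumour MHCIIhi macrophages, 3 and 2 in monocytes and 3 and 3 in neutrophils. Gja1, which encodes the gap junction protein connexin 43, was lower by 5.33 ± 0.52 on the log2 scale in tumour MHCIIhi macrophages and by 2.33 ± 0.52 in monocytes (limma adjusted p = 5.04e-07 and 0.00672). Il4ra, the receptor through which interleukin 4 drives fusion, was lower by 1.97 ± 0.14 in tumour MHCIIhi macrophages (1.75e-08) and by 0.98 ± 0.14 in neutrophils (3.23e-05). Cd200r1 was lower by 2.05 ± 0.36 in monocytes (0.000978). Between the tumour macrophage subsets 1 gene of this list was called, the fusion protease gene Adam8, higher in MHCIIlow macrophages by 1.28 ± 0.24 (0.0128).

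Of the list of acid secretion and matrix resorption 26 of 28 genes were tested, and 4 were called higher and 6 lower in tumour MHCIIhi macrophages, 3 and 1 in monocytes and 5 and 5 in neutrophils. Mmp9, a gelatinase of osteoclasts and neutrophils, was higher in tumours by 3.03 ± 0.53 on the log2 scale in MHCIIhi macrophages, 1.78 ± 0.53 in monocytes and 1.58 ± 0.53 in neutrophils (limma adjusted p = 0.000314, 0.037 and 0.0265), and its descriptive difference in MHCIIlow macrophages was 4.26. Atp6v0a1, another subunit of the proton pump, was higher by 1.18 ± 0.19 in MHCIIhi macrophages and by 1.12 ± 0.19 in monocytes (0.000123 and 0.000652). Between LP subsets Mmp14 was lower in MHCIIlow macrophages by 1.88 ± 0.38 (0.00385). The median differences of the 5 lists in tumour MHCIIhi macrophages lay from -0.37 to 0.37, beside 0.00 for all genes.

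**Figure D5:**
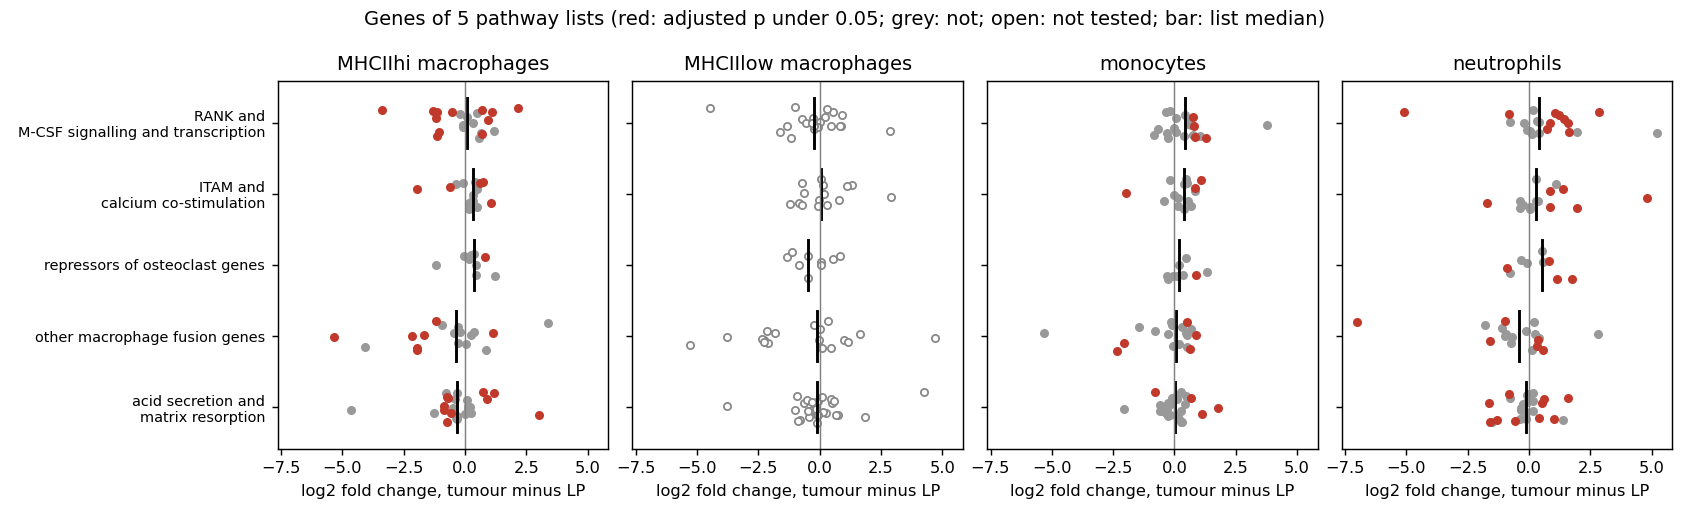
Log2 fold change of tumour minus LP (horizontal axis) for every tested gene of 5 lists (vertical axis) in the 4 populations; red points had a limma adjusted p under 0.05, grey points did not, open points were not tested, and bars are list medians. Each list held genes on both sides of 0, and the list medians lay from -0.47 to 0.52.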

How the data were processed

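Libraries of sorted cells followed a changed SMARTSeq v2 protocol with paired reads and no molecular identifiers. Per the submitters' processing notes and the methods, reads were aligned to GRCm38 with STAR 2.3 and counted per GENCODE gene with featureCounts 1.5, genes with few reads in all populations were left out, and the authors deposited log2 RPKM made with edgeR. A small prior is added before the logarithm (a mean of 0.25 reads), so fold changes of genes near 0 reads depend on it. Whole reads were recovered from 100.0% of 415224 values within a tolerance of 0.001 reads, giving 12.8 to 41.7 M reads on genes per library. Symbols were found by Ensembl identifier for 17190 of 17301 genes.

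Groups came from the labels. The main test, two-sided, was limma 3.58.1 run under R 4.3.3 with a mean-variance trend, fitted on the deposited log2 RPKM of all 24 libraries with 1 mean per group, over 12878 genes with a mean of at least 1 RPKM in a group, and p values were adjusted by Benjamini-Hochberg within each of 10 comparisons, with a threshold of 0.05. The fit was tested on simulated data. Tables and figures were made with Python 3.11.15, pandas 2.3.3 and matplotlib 3.10.9. Alternatives were log2(RPKM + 1), log2(RPKM + 0.1), no filter, a minimum of 5 RPKM, median centring, voom on recovered reads, only the libraries compared, the donor as a replicate block, and each library left out. Pairing comes from the labels, which call the number a donor and so pair populations within a tissue; over 29 such pairs the correlation of deviations from the group means was -0.0661 to 0.255, with a median of 0.0169.

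The genes and lists were chosen with earlier results of these data known. Named were all listed genes, per list and comparison up to 3 called genes of largest change without overlap (of which examples are printed), and the 10 genes most like Dcstamp.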

Additional observations from a re-analysis of the deposited data

How the results depend on the processing

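Of the tested fold changes under the alternatives, 824 kept their direction and side of the threshold, 40 became called, 22 were no longer called and 26 changed sign. Of the untested ones 242 moved by less than the spread between replicates and 8 by more. The called genes in MHCIIhi macrophages, tumour against LP, numbered 1, with 4 under log2(RPKM + 1) and voom, 2 under log2(RPKM + 0.1) and 0 to 1 with 1 library left out. In monocytes 0 became 1 under log2(RPKM + 1), log2(RPKM + 0.1), voom, the replicate block and only the libraries compared, and 0 to 0 with 1 library left out. In neutrophils 2 became 0 under voom and 1 to 3 with 1 library left out. Between LP subsets 2 became 4 under both pseudocounts and voom, 1 under the replicate block, 0 with only the libraries compared and 1 to 2 with 1 library left out. For the difference of tumour effects 0 became 1 under log2(RPKM + 1) and voom, and 0 to 1 with 1 library left out. For macrophages against monocytes in LP 3 became 5 under both pseudocounts and only the libraries compared, 6 under voom and 2 to 4 with 1 library left out. In tumours that count was 3 to 5, and for monocytes against neutrophils it was 2 to 4 in LP and 4 to 5 in tumours. The cause was not tested. Signs changed in fold changes that were not called. Acp5 in MHCIIhi macrophages was 0.38 under the block and -0.47 to 0.12 with 1 library left out. Between tumour subsets it was -0.23 to 0.48, where leaving out 1 library breaks a donor pair. Atp6v0d2 in monocytes was -3.26 to 0.85. Nfatc1 in neutrophils was 0.21 centred, 0.072 under the block and -0.29 to 0.11 with 1 library left out. Tnfrsf11a between tumour subsets was -0.016 centred, -0.012 under voom and -0.20 to 0.15 with 1 library left out. Ctsk in the difference of tumour effects was -1.04 and -0.44 under the larger and smaller pseudocount and -1.33 to 1.38 with 1 library left out, and in tumour monocytes against neutrophils 0.013 under log2(RPKM + 1) and -0.50 to 0.42. Ocstamp in tumour macrophages against monocytes was 0.45 under the block and -0.32 to 0.11. Donors pair libraries only within a tissue, so for tumour against LP the block is no paired test. Pairing by donor as a block changed no call other than those of Ctsk in monocytes and Nfatc1 between LP subsets. Over all genes, voom called 1832 higher and 1965 lower in MHCIIhi macrophages (1031 and 1480 in the fit used), 741 and 1099 between LP subsets (274 and 717), 85 and 156 between tumour subsets (73 and 73) and 330 and 209 for the difference of effects (146 and 42). Under log2(RPKM + 1) these were 738 and 957 between LP subsets and 257 and 216 for the difference. With only the libraries compared they were 2 and 2 between tumour subsets, 52 and 35 for the difference and 1158 and 1208 in neutrophils (1690 and 2452), and under the block 145 and 159 between tumour subsets. Genes with a few reads per library, such as Atp6v0d2 in monocytes and Tnfrsf11a in neutrophils, are limited by depth.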
